A study of Mus musculus with 36 samples.

Results

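The 8 genes described here belong to the thick ascending limb and the distal tubule, and they were followed in kidneys of mice that form cysts after loss of Pkd1 or Pkd2. They were Umod, Slc12a1, Slc12a3, Kcnj1, Calb1, Pvalb, Trpm6 and Wnk4, 8 of 20458 gene symbols with a row in the RNA-seq count table. They were chosen by name, with earlier results of these data known. Each was represented by the RefSeq transcript with the highest mean count over the 36 libraries. The KO mice were Pkd1f/f:HoxB7-Cre or Pkd2f/f:HoxB7-Cre, in which HoxB7-Cre removes the floxed gene from collecting duct cells, and the WT mice were Cre-free Pkd1f/f or Pkd2f/f littermates that carry the same floxed alleles. All were on a C57BL/6 background. Whole kidneys were taken at postnatal day 1, 3 or 7 (P1, P3, P7), with 3 libraries in each of the 12 groups. Each sample thus also holds cells outside the collecting duct, and the share of cells that lose Pkd1 or Pkd2 was not measured.

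The thick ascending limb (TAL) reabsorbs salt without water and so builds the concentration gradient of the medulla. Its apical Na-K-2Cl cotransporter NKCC2 (Slc12a1) works with the potassium channel ROMK (Kcnj1), which returns potassium to the lumen, and its cells secrete uromodulin (Umod). The distal convoluted tubule (DCT) takes up salt through the thiazide-sensitive cotransporter NCC (Slc12a3), which the kinase WNK4 (Wnk4) controls through the SPAK and OSR1 kinases. Distal cells also carry the magnesium channel TRPM6 (Trpm6) and the calcium-binding proteins calbindin (Calb1) and parvalbumin (Pvalb). Some of these genes are not restricted to 1 segment, since Kcnj1, Calb1 and Wnk4 are also used in the connecting tubule and the collecting duct.

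Library totals lay between 7179152 and 15850818 counts. Y-linked counts were present in 18 of the 36 libraries, and at P7 of the Pkd1 model they were present in all 3 KO and in no WT library. The sex of the mice and the Pkd1 genotype therefore cannot be told apart within that day. At P1 of the same model they were present in 2 of 3 WT and in no KO library, and at P3 in all 6. Whole-transcript counts of Pkd1 differed little between KO and WT in the Pkd1 model (log2 fold change at P7 0.10, SE 0.11, adjusted p = 0.556 by edgeR), and Pkd2 was lower in the Pkd2 KO at P7 (-0.29, SE 0.05, adjusted p = 0.0115). These counts take in exons outside the floxed part and do not test the deletion. In the Pkd2 model, WT replicate 2 at P3 held the highest counts of the skeletal muscle genes Ckm (489), Mylpf (633) and Tnni2 (252) of all libraries. Markers of the expected kidney cells were present, with a median of 15671 counts for the proximal phosphate transporter Slc34a1 and 3824.5 for the principal cell water channel Aqp2.

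Of the 8 genes, 6 passed the filter on low counts in both models, and Umod and Slc12a3 did not. Umod (chr7:119462708-119479262, GRCm38, minus strand) was listed with 3 counts in all 36 libraries together for NM_009470 and with 0 for NM_001278605. Slc12a3 (chr8:94329109-94366222, plus strand) was listed at 0 in every library for both NM_001205311 and NM_019415. The counts are per RefSeq transcript, and the authors' counter, HTSeq with default options, by its design leaves out a read that falls on more than 1 feature. The 2 Umod transcripts share 2569 bases in the GENCODE models, and only 56 bases are particular to NM_009470 and 2 to NM_001278605. Both Slc12a3 identifiers are tied to the same GENCODE transcript. Of genes with 1 transcript row, 25.9% had a mean under 1 count, against 46.9% of genes with 2 rows and 51.9% of genes with 3 or more rows. Genes such as Pecam1, Avpr2, Scnn1b and Pdgfrb, markers of kidney cell types, were near 0 as well. Slc12a1 and Kcnj1 have 2 rows that share 4546 and 2866 bases and were counted nonetheless, and the part of the counting in the values of Umod and Slc12a3 was not tested. A listed 0 was not read as absence of the transcript, and no value is given for Umod or Slc12a3 in the comparisons.

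**Figure D1:**
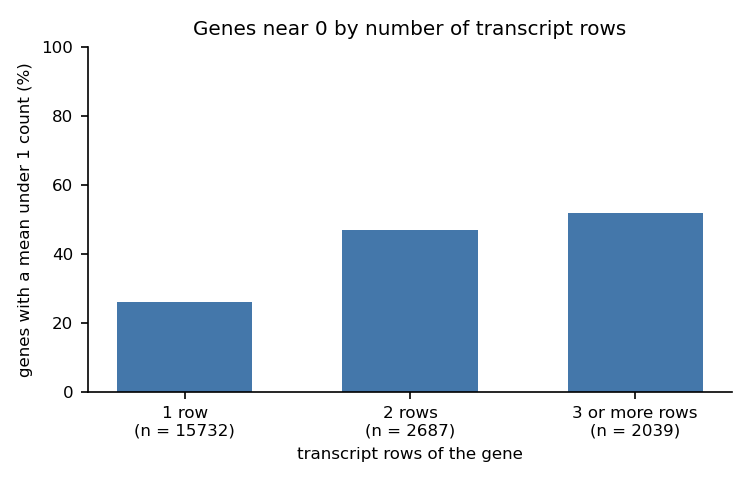
Share of genes whose best transcript row had a mean under 1 count (y axis, percent), for genes with 1, 2 or 3 and more transcript rows (x axis, number of genes in brackets). The share rose from 25.9% with 1 row to 46.9% with 2 rows and 51.9% with 3 or more, and Umod and Slc12a3 both have 2 rows.

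Slc12a1 (chr2:125152510-125230002, plus strand) and Kcnj1 (chr9:32372418-32399197, plus strand) also have 2 rows each and were counted at a low level, with a mean of 32.8 and 22.5 counts per library. Slc12a1 RNA is spliced with mutually exclusive versions of an exon in the part that codes for an ion-binding membrane segment, and the 2 rows differ in this exon. NM_183354 holds the 96 coding bases at chr2:125166123-125166218 and NM_001079690 the 96 at chr2:125166673-125166768. They agree at 56 of the 96 positions (58.3%). The first 30 bases of each exon, read from GENCODE vM21 transcripts on GRCm38, are shown because they are the start of the sequence that tells the rows apart, with capitals at the 13 positions that differ.
NM_183354: gtctTggAgtTCtTatAattCTTctTTCcA
NM_001079690: gtctGggCgtCAtCatCattGGCctGAGcG
Both versions were counted in every library. Summed over a group, NM_001079690 took between 37.1% and 56.5% of the Slc12a1 counts. In WT kidneys of the Pkd1 model it took 49.4% at P7 (exact binomial 95% interval 44.8% to 54.2%), and in KO kidneys 48.3% (37.4% to 59.2%), so no difference in the use of the exon was detectable at this depth in that group. For Pkd2 kidneys the KO share was above the WT share on each day. At P1 it was 56.5% in KO (48.0% to 64.6%) and 49.0% in WT (40.8% to 57.3%), and at P7 53.0% (43.5% to 62.4%) and 43.3% (36.6% to 50.2%). The gap was widest at P3, with 53.9% in KO (45.7% to 62.1%) and 37.6% in WT (29.3% to 46.4%), where single libraries ranged from 44.7% to 61.8% in KO and from 26.3% to 70.0% in WT. The intervals cover counting error only, and the shares were not tested across libraries. NM_183354 had the higher mean and stands for Slc12a1 from here on.

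**Figure D2:**
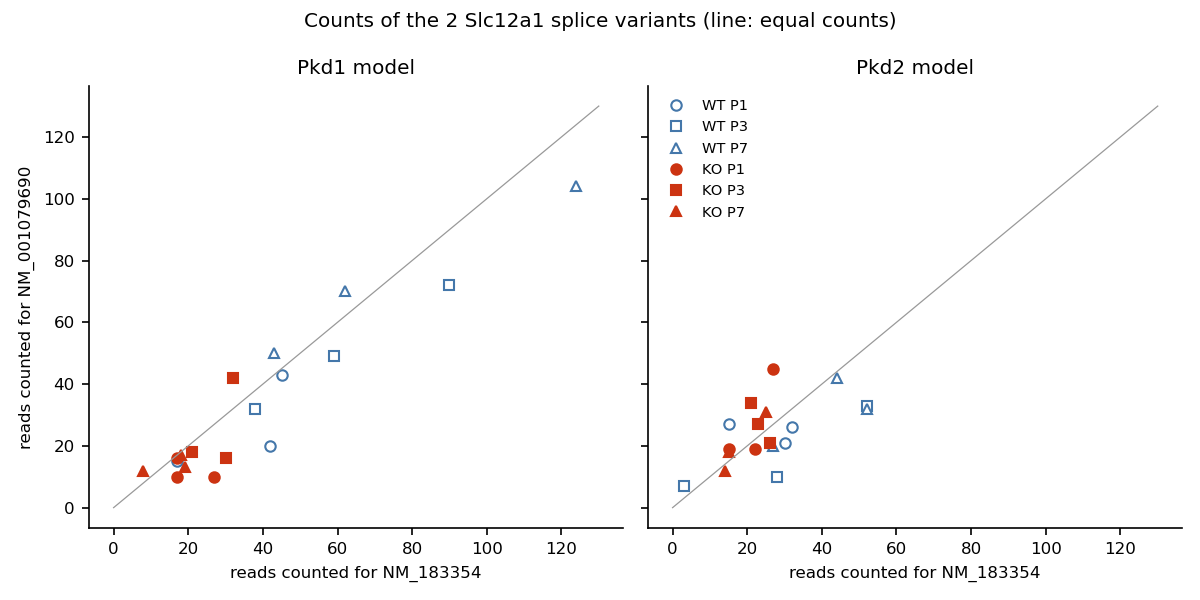
Read counts of the Slc12a1 splice variants NM_183354 (x axis) and NM_001079690 (y axis), 1 point per library, WT open and KO filled, with the symbol giving the day and the line marking equal counts. Libraries lie along the line in both models, and the 3 Pkd1 KO libraries of P7 sit at 8 to 19 and 12 to 17 counts, below the 3 WT libraries of P7 at 43 to 124 and 50 to 104.

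The other 4 genes have 1 row each. They are Calb1 (NM_009788, chr4:15881264-15906709), Pvalb (NM_013645, chr15:78191112-78206400), Trpm6 (NM_153417, chr19:18730177-18892521) and Wnk4 (NM_175638, chr11:101260537-101277409). Levels between genes were compared only among these, as CPM, which are counts scaled by library size and TMM factors, per kb of transcript. In WT kidneys at P7 of the Pkd1 model the level per kb was 91.2 ± 20.5 for Wnk4 (SD, n = 3), 78.4 ± 11.4 for Calb1, 2.17 ± 0.345 for Trpm6 and 1.33 ± 0.646 for Pvalb. The Pkd2 model gave 87.5 ± 2.99 for Wnk4, 82.8 ± 21.0 for Calb1, 29.7 ± 24.9 for Pvalb and 2.23 ± 0.540 for Trpm6. Wnk4 and Calb1 did not differ beyond their spread in either model. Trpm6 and Pvalb overlapped as well, and their order was not the same in the 2 models.

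**Figure D3:**
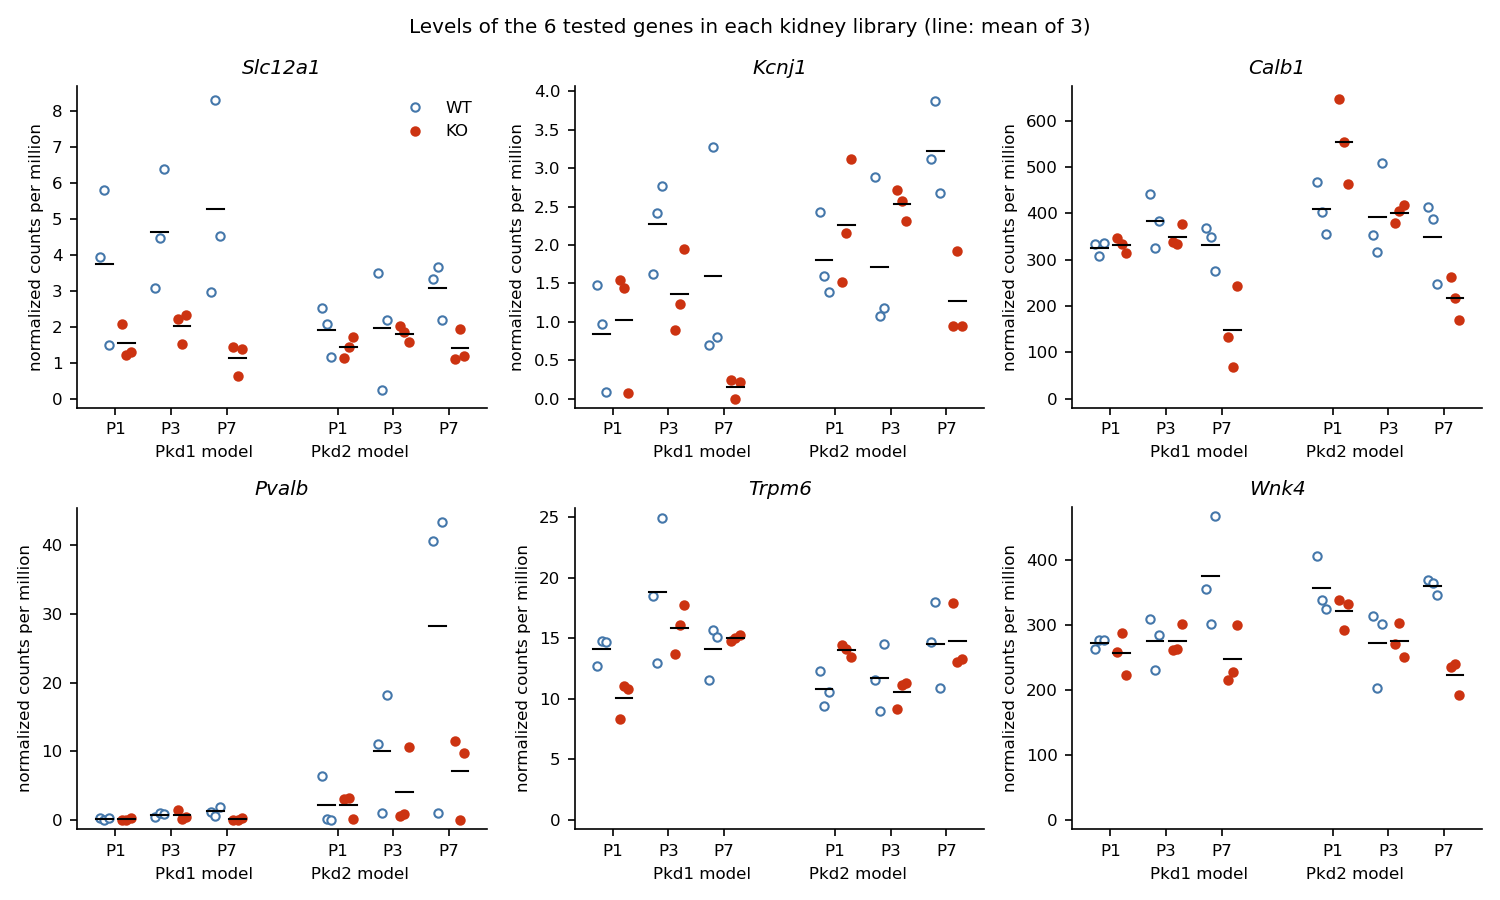
Levels of the 6 tested genes in each of the 36 libraries, in CPM on linear axes (y axis), by day and model (x axis), with WT open, KO filled and a line at the mean of 3. At P7 of the Pkd1 model the KO points of Slc12a1, Kcnj1, Calb1, Pvalb and Wnk4 all lie below the WT points, and Trpm6 overlaps.

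The course of the genes in WT kidneys was examined first, from P1 to P7. Pvalb, which buffers calcium in early DCT cells, was the one member that rose past the threshold. In the Pkd1 model its counts were 3, 0 and 4 in P1 kidneys, 6, 13 and 13 in P3 kidneys and 18, 10 and 26 in P7 kidneys. All P7 libraries were above all P1 libraries. The share of all transcripts apart in this way between days is not given, so this separation and that of Wnk4 below are described only. The log2 fold change of 2.44 (SE 0.71) had an adjusted p of 0.0377 by edgeR's quasi-likelihood test. In that comparison 8.92% of all 12527 transcripts tested were called higher. Pkd2 WT libraries held 81, 3 and 1 counts on P1, 165, 13 and 232 on P3 and 535, 14 and 535 on P7. The libraries of a day thus differed more from each other than the days did, and the rise of 3.67 (SE 1.55) was not called (adjusted p = 0.131), where 7.95% of transcripts were called higher. The Pkd1 rise was called without WT replicate 2 of P7 (adjusted p = 0.0244 by edgeR) and was not called without any 1 of the other 5 libraries of P1 and P7 (0.0559 to 0.0945). Y-linked counts were present in 2 of the 3 P1 and in none of the 3 P7 libraries of this comparison. With a term for them, an alternative added after the data were seen, the Pvalb rise was 6.99 (SE 1.90) and was not called (unadjusted p = 0.00471, adjusted p = 0.0926 by edgeR).

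Pvalb differed widely between libraries of the same group in the Pkd2 model. WT replicate 2 of the Pkd2 model held 13 counts at P3 and 14 at P7, and KO replicate 2 held 1 count at P7, against 148 and 123 in the other KO libraries. Skeletal muscle also makes parvalbumin. The summed level of 6 muscle markers was 2.42 to 108 CPM in the WT libraries of P3, highest in replicate 2, and 2.75 to 3.40 CPM in those of P7. The part of muscle RNA in the Pvalb values was not tested. No library of the Pkd1 model exceeded 26 counts.

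Wnk4 was level between P1 and P3 in the Pkd1 WT kidneys, at 273 ± 7.66 and 275 ± 40.2 CPM, and stood at 375 ± 84.3 CPM at P7. The P7 libraries, at 302, 356 and 468 CPM, were above all P1 libraries, and the log2 fold change of 0.45 (SE 0.16) had an adjusted p of 0.0675. With the added term for Y-linked counts it was 0.43 (SE 0.24, adjusted p = 0.372 by edgeR). Wnk4 in Pkd2 WT kidneys went from 357 ± 43.0 CPM at P1 to 273 ± 60.6 CPM at P3 and 360 ± 12.3 CPM at P7. The difference of P7 from P1 was -0.01 (SE 0.16, adjusted p = 0.970). Calb1 stayed within 326 ± 16.1 to 384 ± 57.8 CPM in the Pkd1 WT groups and within 350 ± 88.7 to 409 ± 56.6 CPM in the Pkd2 WT groups. Its differences of P7 from P1 were 0.02 (SE 0.14) and -0.25 (SE 0.22). Trpm6 differed by 0.00 (SE 0.24) and 0.41 (SE 0.23), Slc12a1 by 0.52 (SE 0.52) and 0.65 (SE 0.69), and Kcnj1 by 0.92 (SE 0.80) and 0.81 (SE 0.42). None of these was called, with adjusted p values between 0.211 and 0.999. The other Slc12a1 row, NM_001079690, differed by 0.99 (SE 0.43, unadjusted p = 0.0448, adjusted p = 0.139 by edgeR) in the Pkd1 model. In the Pkd2 model it differed by 0.32 (SE 0.50, adjusted p = 0.702), and it was called in neither.

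KO and WT kidneys were then compared at each day, to see when these genes differ. At P1 and P3 none of the 6 tested members was called by edgeR in either model. The background was as low, with 0% of transcripts called at P1 of both models and at P3 of the Pkd2 model and 0.00798%, a single transcript, at P3 of the Pkd1 model. At an unadjusted p under 0.05 there were 2 members at P1 of the Pkd1 model, beside 1.25% of transcripts, and 1 at P3, beside 14.0%. Pkd2 kidneys had 2 at P1, beside 5.60%, and 0 at P3, beside 4.47%. DESeq2 called 0 members in these 4 comparisons, where it called 0.0160% and 1.70% of transcripts in the Pkd1 and 0.261% and 0.301% in the Pkd2 model.

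Slc12a1 had the lowest estimate of the 6 at both days in the Pkd1 model. Its counts at P1 were 27, 17 and 17 in KO and 45, 42 and 17 in WT, and the difference of -1.28 on the log2 scale (SE 0.51) had an adjusted p of 1.00. At P3 they were 32, 21 and 30 in KO and 38, 59 and 90 in WT, with no overlap after scaling (1.52 to 2.33 CPM against 3.09 to 6.39), a difference of -1.22 (SE 0.32) and an adjusted p of 0.182. Counts in the Pkd2 KO were 15, 22 and 27 at P1 and 26, 23 and 21 at P3, against 32, 30 and 15 and 52, 3 and 28 in WT. The value of 3 came from WT replicate 2 at P3, the library with the muscle counts. Groups overlapped on both days, and the differences were -0.42 (SE 0.36) and -0.13 (SE 0.76). The other row, NM_001079690, differed by -1.55 (SE 0.48, unadjusted p = 0.0115 by edgeR) at P1 of the Pkd1 model, with all KO below all WT libraries. At P3 of that model it differed by -1.07 (SE 0.40), with overlap. In the Pkd2 model its differences were -0.01 (SE 0.39) at P1 and 0.83 (SE 0.56) at P3, with overlap. None of these was called.

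Trpm6, which carries magnesium into DCT cells, had KO and WT libraries apart at P1 in both models but in opposite directions. The share of all transcripts apart in this way is not given for P1 or P3, so this separation and that of Slc12a1 are described only. The Pkd1 KO libraries were at 8.31, 11.1 and 10.8 CPM and the WT libraries at 12.7, 14.8 and 14.7. For the Pkd2 model the KO libraries were at 14.5, 14.1 and 13.5 CPM and the WT libraries at 12.3, 9.44 and 10.6. The differences were -0.50 (SE 0.19, adjusted p = 1.00) and 0.37 (SE 0.15, adjusted p = 0.864), so neither was called, and the difference between the models at P1 was not tested. Calb1 was higher on average in the Pkd2 KO at P1, at 555 ± 91.4 CPM against 409 ± 56.6, with overlapping libraries, a difference of 0.43 (SE 0.14) and an adjusted p of 0.854. Kcnj1 was at 1 count in replicate 3 of both the KO and the WT group at P1 of the Pkd1 model, while the other 4 libraries held 7 to 20.

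At P7 the estimates of 5 of the 6 tested members, all but Trpm6, were below 0 in both models. In the Pkd1 model 1 of the 6 tested members, Slc12a1, was called lower, where 7.14% of all transcripts were. All 3 KO libraries lay below all 3 WT libraries for 5 of the 6, a separation that 18.7% of transcripts showed. In the Pkd2 model 2 of the 6, Wnk4 and Kcnj1, were called lower, where 6.17% of all transcripts were, and 3 of the 6 were separated, against 15.5% of transcripts. The median log2 fold change of the 6 was -1.69 in the Pkd1 and -0.92 in the Pkd2 model, beside 0.00 in each over all transcripts tested. In whole kidneys, fewer cells of a segment and less RNA per cell cannot be told apart.

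**Figure D4:**
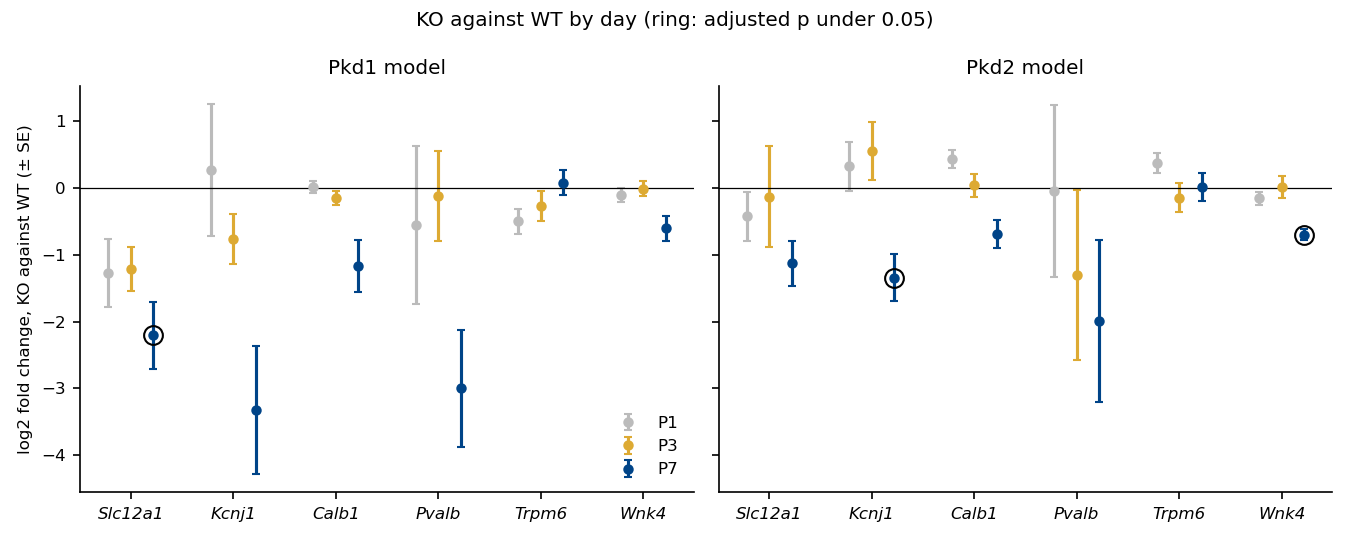
Log2 fold change of KO against WT with its SE (y axis) for the 6 tested genes (x axis) at P1, P3 and P7 in each model, with a ring around values with an adjusted p under 0.05. At P7 all genes but Trpm6 lie below 0, and rings stand at Slc12a1 in the Pkd1 model and at Kcnj1 and Wnk4 in the Pkd2 model.

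Slc12a1 counts at P7 were 18, 8 and 19 in Pkd1 KO kidneys and 43, 124 and 62 in WT. The KO group was lower without overlap, at 1.14 ± 0.449 CPM against 5.26 ± 2.73 (SD, n = 3), a log2 fold change of -2.21 (SE 0.50, adjusted p = 0.0292 by edgeR). The call held without WT replicate 3 (0.0213) and was lost without any 1 of the other 5 libraries, at -1.71 to -2.49 and adjusted p values of 0.0571 to 0.106. The other splice variant, NM_001079690, whose counts come from different reads of the same libraries, was at 17, 12 and 13 in KO and 50, 104 and 70 in WT, and fell by 2.27 on the log2 scale (SE 0.39, adjusted p = 0.0140). For Pkd2, NM_183354 was at 14, 25 and 15 in KO and 44, 52 and 27 in WT. All KO libraries were below all WT libraries, with a difference of -1.13 (SE 0.34, adjusted p = 0.0630). NM_001079690 overlapped there, at 12, 31 and 18 against 42, 32 and 20 (-0.58, SE 0.42, adjusted p = 0.402). The rows share 4546 bases, and if shared reads were left out, the counts of each rest mainly on its own exon of 96 bases. A lower level of the whole gene and less use of these exons cannot then be told apart.

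Kcnj1, the potassium channel of the same cells, showed the largest estimate of the 6 in the Pkd1 model at P7, though from very few reads. It had 3, 0 and 3 counts in KO and 10, 49 and 11 in WT. The KO libraries summed to 6 counts against 70, a ratio relative to library totals of 0.0904 (exact 95% interval 0.0321 to 0.207, counting error only). The log2 fold change of -3.32 (SE 0.96) had an adjusted p of 0.0536 by edgeR and was not called. WT replicate 2 held 49 of the 70 WT counts, and without it the log2 fold change was -2.23 (adjusted p = 0.155). It was called without WT replicate 3 (-3.65, adjusted p = 0.0293) and not without any 1 of the remaining 4 libraries (0.0951 to 0.148). Pkd2 kidneys had counts of 12, 25 and 12 in KO and 41, 55 and 33 in WT, with a ratio of 0.382 (0.269 to 0.535). The groups did not overlap, and the log2 fold change of -1.34 (SE 0.36) was called (adjusted p = 0.0432). It was also called without WT replicate 3 or KO replicate 2, and not without any 1 of the other 4 libraries (adjusted p = 0.115 to 0.126). Kcnj1's other transcript, NM_001168354, was at 0 to 7 counts in every library and was not tested. The 2 transcripts share 2866 bases, and 121 bases, 0 of them coding, are particular to NM_019659. If shared reads were left out, the counts of NM_019659 rest on that stretch. A lower level of the whole gene and less use of that stretch cannot then be told apart, in either model.

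Wnk4 was called in the Pkd2 model at P7, with the smallest spread of the 6. The KO libraries were at 236, 240 and 193 CPM and the WT libraries at 369, 365 and 346 CPM. The distance between the groups was larger than the range within either, and the log2 fold change of -0.70 (SE 0.09) had an adjusted p of 0.00292. The Pkd1 KO libraries were at 216, 229 and 301 CPM and the WT libraries at 356, 302 and 468 CPM. The highest KO and the lowest WT library nearly met, and the difference of -0.60 (SE 0.19) was not called (adjusted p = 0.0652). The difference between the effects in the 2 models was 0.11 (SE 0.22, adjusted p = 0.837).

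Calb1, the calcium buffer of the late DCT and connecting tubule, was at 133, 67.6 and 242 CPM in the Pkd1 KO kidneys of P7 and at 368, 349 and 276 CPM in WT. No KO library reached the WT range, but the KO libraries differed from each other by several times, and the difference of -1.17 (SE 0.38) had an adjusted p of 0.0748. Pkd2 KO libraries were at 263, 217 and 170 CPM and the WT libraries at 414, 387 and 248 CPM. One KO library exceeded the lowest WT library, and the difference was -0.70 (SE 0.21, adjusted p = 0.0639). Pvalb was at 1, 0 and 5 counts in Pkd1 KO and 18, 10 and 26 in WT, without overlap (-3.00, SE 0.87, adjusted p = 0.0554). Pkd2 kidneys held 148, 1 and 123 counts in KO and 535, 14 and 535 in WT, with overlap (-1.99, SE 1.21, adjusted p = 0.319).

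Trpm6 had the smallest difference of the 6 at P7 in both models. The Pkd1 KO libraries, at 14.78, 14.99 and 15.26 CPM, were inside the WT range of 11.56 to 15.71. The Pkd2 KO libraries, at 17.94, 13.03 and 13.26 CPM, were inside the WT range of 10.94 to 17.97. The log2 fold changes were 0.08 (SE 0.19, adjusted p = 0.799) and 0.01 (SE 0.21, adjusted p = 0.980).

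The calls at P7 depended on the treatment of the spread and of sex. In the Pkd1 model DESeq2 called 4 members lower (Slc12a1, Kcnj1, Pvalb and Wnk4), where it called 11.6% of all transcripts lower, and a fit over all 18 libraries of the model called 5, where it called 16.5% lower. When that fit also held a term for Y-linked counts being present, 0 members were called by edgeR, beside 0.0479% of transcripts, and 2 had an unadjusted p under 0.05, beside 13.9%. Only the WT group of P1 held libraries both with and without Y-linked counts in this model, so the term rests on those 3 libraries. The log2 fold change of Slc12a1 was -1.12 with an adjusted p of 0.562 in that fit, and Calb1 and Wnk4 were at -1.30 and -0.57. For the Pkd2 model, where Y-linked counts were present in all 3 KO and 2 of 3 WT libraries, DESeq2 called the same number as edgeR, 2, against 8.46% of all transcripts, and the fit with the covariate called 3, where it called 4.87% lower. Wnk4 in the Pkd2 model stayed called whichever of the 6 libraries was left out (adjusted p = 0.00169 to 0.0216 by edgeR).

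Whether the KO effect differed between P7 and P1, and between the models at P7, was tested as an interaction. In the Pkd1 model 0 of the 6 members were called by edgeR, where 7.75% of transcripts were, and in the Pkd2 model 0 of 6, where 1.30% were. At an unadjusted p under 0.05 there were 3 members in each model, beside 26.5% and 15.5% of transcripts, and DESeq2 called 1 in each, Calb1, beside 13.0% and 3.67%. Calb1 came closest in edgeR too, with a change of the KO effect of -1.19 (SE 0.39, adjusted p = 0.0675) in the Pkd1 and -1.13 (SE 0.29, adjusted p = 0.0738) in the Pkd2 model. That of Wnk4 was -0.51 (SE 0.22) and -0.54 (SE 0.20), with adjusted p values of 0.147 and 0.197. In the Pkd1 model only WT libraries held Y-linked counts at P1 and only KO libraries at P7. Sex and this change cannot be told apart there. With a term for Y-linked counts, added after the data were seen, the Pkd1 changes were -1.39 (SE 0.85) for Calb1 and -0.44 (SE 0.46) for Wnk4. Those of the Pkd2 model were -1.20 (SE 0.32) and -0.60 (SE 0.21). None was called (adjusted p = 0.880, 0.938, 0.108 and 0.225 by edgeR). Between the models no member was called at P7 by edgeR or DESeq2 or had an unadjusted p under 0.05, beside 0%, 3.16% and 17.3% of the 12343 transcripts tested in both. The estimate was furthest from 0 for Kcnj1, at -1.97 (SE 1.02, adjusted p = 0.343). The limit of sex at P7 of the Pkd1 model holds for this comparison too. These values are of the row that stands for each member. The other Slc12a1 row, NM_001079690, differed between the models by -1.68 (SE 0.57, unadjusted p = 0.0123, adjusted p = 0.191 by edgeR) and was not called.

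Other genes of the same segments were read from 3 lists. For them too, sex and genotype cannot be told apart at P7 of the Pkd1 model. Of 20 other TAL genes, 16 were tested, and at P7 of the Pkd1 model 6 fell and 0 rose, where 7.14% of transcripts fell and 6.32% rose. Their median log2 fold change was -0.82, beside 0.00 over all transcripts. Egf, made by TAL and DCT cells, was at 9.55 ± 3.31 CPM in KO and 47.2 ± 10.7 in WT and fell by 2.32 (SE 0.29, adjusted p = 0.00703). Bsnd, the barttin subunit of the basolateral chloride channels, fell by 1.36, the calcium-sensing receptor Casr by 2.01 and the parathyroid hormone receptor Pth1r by 2.26. Among the 16, in Pkd2 kidneys 8 fell and 1 rose, where 6.17% of transcripts fell and 7.88% rose, with a median of -0.58. Egf was at 17.0 ± 3.80 CPM in KO and 50.9 ± 1.69 in WT (-1.59, SE 0.15, adjusted p = 0.00105). Bsnd fell by 1.05 and the myo-inositol transporter Slc5a3 by 0.96. Ptgs2, the cyclooxygenase of the macula densa and of interstitial cells, rose by 1.11 (SE 0.29, adjusted p = 0.0382). The claudins Cldn16 and Cldn19, which form the paracellular path for calcium and magnesium in the TAL, were called in neither model.

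Of 20 other DCT and connecting tubule genes, 15 were tested. Pkd1 kidneys had 4 that fell and 0 that rose, beside 7.14% and 6.32% of all transcripts, with a median of -0.44. Kl, the klotho co-receptor for FGF23, was at 154 ± 49.4 CPM in KO and 412 ± 52.1 in WT and fell by 1.43 (SE 0.23, adjusted p = 0.0118). Fxyd2, a regulatory subunit of the sodium pump, fell by 1.42, and the basolateral potassium channel Kcnj10 fell by 0.84. Pkd2 kidneys had 6 that fell and 1 that rose, beside 6.17% and 7.88% of all transcripts, with a median of -0.43. Klk1, the tissue kallikrein of the connecting tubule, was at 218 ± 17.3 CPM in KO and 397 ± 11.3 in WT and fell by 0.87 (SE 0.07, adjusted p = 0.000458). Atp1b1, the beta subunit of the sodium pump, fell by 0.52 and the transcription factor Emx1 by 0.50. Cnnm4, of a family linked to magnesium transport, rose by 0.53 (SE 0.10, adjusted p = 0.0140). Fxyd2 and Atp1b1 are also used by other tubule segments. Whether the other genes named from this list and from the TAL list are restricted to these segments was not tested. Of the genes of calcium transport, S100g was called in neither model, at -0.15 and -0.39, and Trpv5 was at -0.44 in the Pkd1 and 1.01 (adjusted p = 0.0545) in the Pkd2 model.

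Of 14 genes of the WNK pathway 13 had a row, and Oxsr1, which codes for OSR1, and Wnk3 were near 0. Where 7.14% of all transcripts fell and 6.32% rose, 2 of 11 tested in the Pkd1 model fell and 0 rose, with a median of -0.19. They were Cab39l, a scaffold that activates SPAK (-0.96, SE 0.17, adjusted p = 0.0144), and the phosphatase inhibitor Ppp1r1a (-1.03, SE 0.26, adjusted p = 0.0376). Of 10 tested in the Pkd2 model 1 fell and 1 rose, beside 6.17% and 7.88% of all transcripts, with a median of -0.09. Ppp1r1a fell by 0.94 (SE 0.09, adjusted p = 0.00118), and Stk39, which codes for SPAK, rose by 0.33 (SE 0.08, adjusted p = 0.0282). Stk39 was at 0.23 in the Pkd1 model (adjusted p = 0.388). At P1 and P3 the medians of the 3 lists lay between -0.10 and 0.17 in both models.

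**Figure D5:**
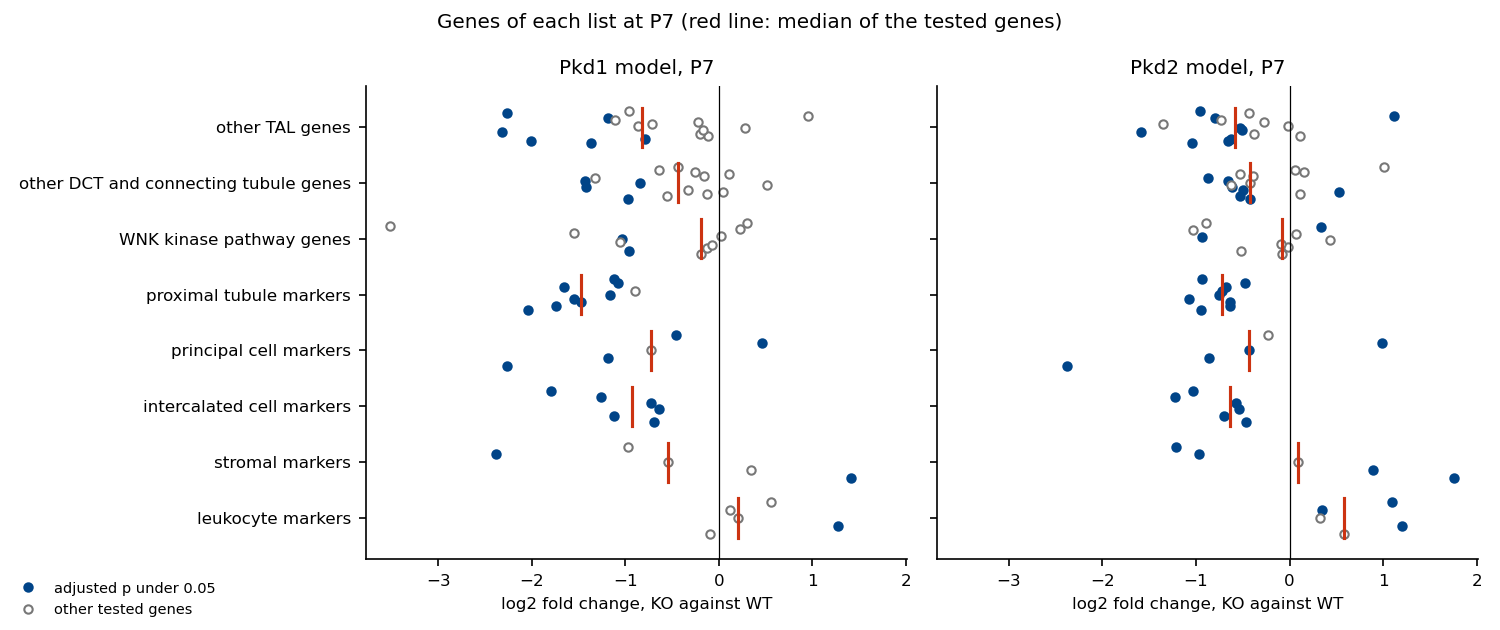
Log2 fold change of KO against WT at P7 (x axis) for the tested genes of 8 lists (y axis) in each model, filled where the adjusted p was under 0.05, with a red line at the median of the list. Medians of the TAL, DCT and proximal tubule lists lie below 0 in both models, from -0.43 to -1.47, and the leukocyte median lies above 0.

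Markers of several other cell types moved at P7 as well, with the same limit of sex in the Pkd1 model. Over all transcripts tested, 7.14% fell and 6.32% rose in the Pkd1 model, and 6.17% fell and 7.88% rose in the Pkd2 model. Of 9 proximal tubule markers tested, 8 fell in the Pkd1 and 9 in the Pkd2 model, with medians of -1.47 and -0.72. Their summed level was 1647 to 3012 CPM in Pkd1 KO against 5321 to 6352 in WT, and 3606 to 3786 in Pkd2 KO against 5453 to 6631 in WT. All 6 intercalated cell markers tested fell in both models (medians -0.92 and -0.64). Of 5 principal cell markers, 3 fell and 1 rose in each model. Stromal markers moved both ways. Of 5 tested, 1 fell (Dcn, log2 fold change -2.39) and 1 rose (Acta2, 1.42) in the Pkd1 model, with a median of -0.54, and 2 fell (Lum and Dcn, -1.21 and -0.97) and 2 rose (Acta2 and Col1a1, 1.75 and 0.89) in the Pkd2 model, with a median of 0.09. Their sums overlapped in the Pkd1 model, at 7184 to 8650 CPM in KO against 5771 to 7403 in WT, and did not in the Pkd2 model, at 8693 to 10457 against 6127 to 6498. Leukocyte markers rose in 1 of 5 cases in the Pkd1 and in 3 of 5 in the Pkd2 model. Podocyte markers fell in 2 of 6 cases in the Pkd1 and in 0 of 6 in the Pkd2 model. Endothelial markers fell in 1 of 3 and in 2 of 4 cases. Of 5 nephron progenitor markers tested, 0 were called in either model. Summed over the whole list, the other TAL genes gave 920 to 1063 CPM in Pkd1 KO against 1453 to 1650 in WT, and 918 to 1080 in Pkd2 KO against 1460 to 1604 in WT. The part of these other cells in the lower values of the TAL and DCT genes was not tested.

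For each tested member, the transcripts with the most similar course were found among 8878 with a mean of at least 100 counts, by Pearson's correlation of log2 CPM over the 36 libraries, which share groups and depth. For Kcnj1 they were the sodium-proton exchanger Slc9a3 (r = 0.905), Rdh19 (0.896) and NM_177321 (0.881), and for Slc12a1 Golga4 (0.831), Itpr1 (0.810) and Veph1 (0.801). For Calb1 they were the mitochondrial aminotransferase Got2 (0.872), Gpx6 (0.841) and Ccdc85c (0.839), and for Wnk4 Sostdc1 (0.846), Golt1a (0.842) and Fabp3 (0.822). The correlations were lower for Pvalb, with Decr2 (0.670), Decr1 (0.669) and Slc26a1 (0.662), and for Trpm6, with Vps13a (0.678), Rnf19a (0.620) and Hint3 (0.595).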

How the data were processed

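Total RNA of 36 mouse kidneys was sequenced. Per the paper's methods and the submitters' processing notes, the authors mapped reads to mm10 with TopHat2 2.1.0 and counted them with HTSeq (default options, RefSeq annotation). The deposited table holds raw counts for 29996 transcripts, of which 28978 got a symbol from RefSeq (GRCm38.p6, equal to mm10). In each model, transcripts that reached 10 counts in 3 or more of 18 libraries were tested (12527 and 12633). KO and WT were compared with edgeR 4.0.16 in R 4.3.3 (quasi-likelihood test, TMM factors, Benjamini-Hochberg adjustment over all transcripts, threshold 0.05). SE is the log2 fold change over the square root of F. DESeq2 1.42.0 and other settings were alternatives. On simulated counts of P7, Pkd1 KO and WT were compared by edgeR, with and without a replicate block, and by DESeq2. The edgeR test of the difference between the models was run on them too. The other fits were not tried on simulated counts.

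The 8 members and all lists were chosen with earlier results of these data known. Genes named besides the members are the 4 with the smallest adjusted p of each list, model and direction at P7, the 3 most correlated transcripts, and markers. Some genes that this rule names are not reported here. Cldn16, Cldn19, S100g, Trpv5, Oxsr1, Wnk3, Stk39 in the Pkd1 model and genes given as near 0 were named after their values were seen. Replicate numbers come from the labels. At P1 of the Pkd1 model same-numbered libraries deviated together (r = 0.357, 0.211 and 0.527), and a replicate block changed no call of a member there. Chi-square per transcript between replicates was 4.89 to 59.3 over 36 pairs, so no 2 replicates looked like 1 library. Each library is taken as 1 mouse, which the labels do not spell out, and p-values measure the spread between these libraries.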

Additional observations from a re-analysis of the deposited data

Results flagged for a closer look

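Trpm6 at P1 had estimates of opposite sign in the 2 models. The share of all transcripts with KO and WT libraries apart at P1 is not given, so no result about Trpm6 is drawn from this. All 3 KO libraries of the Pkd1 model were below all 3 WT libraries, with a log2 fold change of -0.50, and all 3 KO libraries of the Pkd2 model were above all 3 WT libraries, with 0.37. Neither difference was called by edgeR (adjusted p = 1.00 and 0.864), the difference between the models was not tested, and at P7 the values were 0.08 and 0.01.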

How the results depend on the processing

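Counts of members called at P7 moved in the Pkd1 model from 1 to 4 with DESeq2, 2 with library totals, 2 without the low-count filter, 2 with the rows of a symbol summed, 5 with all 18 libraries in one fit and 0 with Y-linked counts as a covariate, and ranged from 0 to 2 without 1 library. Slc12a1 was no longer called without WT replicate 1 or 2 or without any 1 of the 3 KO replicates. In the Pkd2 model the count moved from 2 to 1 with a minimum change of 2-fold and to 4 with the replicate block (Kcnj1, Calb1, Pvalb and Wnk4), and ranged from 1 to 4 without 1 library. The replicate block left 1 call in the Pkd1 model at P7, Wnk4 in place of Slc12a1. The same-numbered libraries of these groups share only a number (correlations -0.206 to 0.170). The change of the KO effect from P1 to P7 gave 1 member with DESeq2 in each model, against 0, and 0 to 1 without 1 library. The rise in WT kidneys gave 2 with DESeq2 and 0 to 2 without 1 library in the Pkd1 model, against 1, and 1 with the replicate block and 0 to 1 without 1 library in the Pkd2 model, against 0.

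Signs turned for values near 0 or from few counts. Pvalb at P1 was 4.05 in the Pkd1 model with the covariate (-0.56 before) and 0.76 in the Pkd2 model with the replicate block (-0.05 before). Slc12a1 at P3 of the Pkd2 model was 0.26 with the replicate block, 0.31 with rows summed and 0.27 with the covariate. Trpm6 at P7 of the Pkd2 model was -0.0190 with library totals and -0.0100 with the covariate. In WT kidneys of the Pkd1 model from P1 to P7 it was -0.00177 with DESeq2, -0.00216 with RLE factors, -0.00315 without the filter and -0.000404 with the replicate block, and Wnk4 in the Pkd2 model was 0.00490 with DESeq2 and with RLE factors.

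Leaving out 1 library, the values at P1 of the Pkd1 model ranged from -0.0302 to 0.0465 for Calb1, -0.31 to 1.09 for Kcnj1 and -2.31 to 0.0217 for Pvalb, and at P3 from -0.12 to 0.0773 for Wnk4 and -1.23 to 0.32 for Pvalb. In the Pkd2 model they ranged from -0.62 to 3.79 for Pvalb at P1, and at P3 from -0.65 to 0.57 for Slc12a1, -0.10 to 0.27 for Calb1, -0.16 to 0.13 for Wnk4 and -0.30 to 0.0410 for Trpm6. Trpm6 at P7 ranged from -0.0491 to 0.17 and from -0.16 to 0.19. Between the models it ranged from -0.10 to 0.24, and Wnk4 from -0.0556 to 0.30. From P1 to P7 in WT, Trpm6 ranged from -0.0845 to 0.13, Calb1 from -0.0622 to 0.14 and Kcnj1 from -0.17 to 1.75 in the Pkd1 model, and Wnk4 from -0.0803 to 0.0933 in the Pkd2 model. With Y-linked counts as a covariate, added after the data were seen, the rise in Pkd1 WT kidneys gave 0 members in place of 1, Slc12a1 and Trpm6 there were -0.14 and -0.0737, and the change of the KO effect of Slc12a1 in the Pkd1 model was 0.82. The causes were not tested. All other values of single genes kept their sign.

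Kcnj1, Slc12a1 and Pvalb had means of 22.5 to 62.2 counts, which limits their precision with 3 libraries a group. Umod and Slc12a3 had too few counts for any comparison.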
